A study of Homo sapiens with 24 samples.

Results

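Non-homologous end joining (NHEJ) rejoins the ends of a DNA double-strand break directly, and the 10 genes described here encode its core factors and 53BP1. They are XRCC6, XRCC5 and PRKDC for end recognition, DCLRE1C, POLL and POLM for end processing, XRCC4, NHEJ1 and LIG4 for ligation, and TP53BP1 for end protection. The members were chosen by name, and all 10 were found among the 57820 genes of the count tables. Every member passed the filter on low counts in each comparison.

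RNA was sequenced from U2OS cells, an established human osteosarcoma line, that were wild-type (WT) or knockout for ID3 (ID3-KO). The 24 libraries form 8 groups of 3 biological replicates. AID-DIvA U2OS cells, a U2OS derivative that carries the restriction enzyme AsiSI in inducible form, were of either genotype. They were left untreated, or received mocetinostat, an inhibitor of class I histone deacetylases, for 24 h and then drug-free medium for 24 h. U2OS cells of both genotypes likewise received mocetinostat or were left untreated. The labels call the controls of both lines untreated, whereas panel titles of a supplementary figure of the study name DMSO. The methods describe collection after 24 h of treatment, before or after recovery, and assign neither stage to a line. The titles of the U2OS samples name no recovery, so their collection before recovery is an inference made here. The labels name no induction of AsiSI, and the sources used here give no mocetinostat dose for these libraries and do not say whether the knockout is a single clone. The cell line label and the stage of collection coincide, so their effects cannot be told apart. The library names of the U2OS samples also contain DivA. For the AID-DIvA samples the treatment field of the labels is the opposite of the titles. The titles were used, and were the field correct, the sign of every AID-DIvA treatment difference and interaction below would be reversed. The untreated and treated AID-DIvA genotype comparisons would then change places, and the differences between the responses of the 2 lines would take other values. CDKN1A, which encodes the cell cycle inhibitor p21, was higher by 1.21 (SE 0.06) in the WT and by 0.94 (SE 0.07) in the ID3-KO AID-DIvA libraries titled as treated, and by 0.92 (SE 0.10) in WT and 0.96 (SE 0.05) in ID3-KO treated U2OS cells, all on the log2 scale.

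In NHEJ, the Ku heterodimer of XRCC6 (Ku70) and XRCC5 (Ku80) binds the broken ends and recruits the DNA-dependent protein kinase catalytic subunit, which PRKDC encodes. The nuclease Artemis (DCLRE1C) and the polymerases lambda (POLL) and mu (POLM) make the ends compatible, and XRCC4, XLF (NHEJ1) and DNA ligase IV (LIG4) seal them. 53BP1 (TP53BP1) protects ends from resection and so favours end joining over homologous recombination. ID3 lacks a DNA-binding region and holds E proteins, a class of basic helix-loop-helix transcription factors, away from their sites, which contain the hexamer CANNTG, the E-box.

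DCLRE1C and POLM were the members that differed between genotypes in all 4 genotype comparisons, in opposite directions, and their upstream sequences are therefore given. RefSeq (build GRCh38.p14) promoters were matched by symbol for 8 of the 10 members, XRCC5 and PRKDC having no entry. DCLRE1C has annotated starts at 2 places on the minus strand of chromosome 10. The 250 bases before the outer start span chr10:14954433-14954682 and hold no E-box. The window of the inner start holds a single E-box of the form CACCTG, shown with its flanks at chr10:14954279-14954308. This window lies in the first exon of transcripts from the outer start, so only the site is printed. POLM, on the minus strand of chromosome 7, holds a single E-box in its upstream window, chr7:44082531-44082780. Capitals mark the E-boxes, and each sequence reads 5′ to 3′ on the strand of the gene.
DCLRE1C outer start: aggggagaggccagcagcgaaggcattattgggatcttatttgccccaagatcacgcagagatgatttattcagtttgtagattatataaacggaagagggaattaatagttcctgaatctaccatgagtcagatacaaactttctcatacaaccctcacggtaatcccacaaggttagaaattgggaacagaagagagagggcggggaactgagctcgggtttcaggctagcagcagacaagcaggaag
DCLRE1C inner start, E-box: ttaccagagcaaCACCTGtgtttgttgggc
POLM: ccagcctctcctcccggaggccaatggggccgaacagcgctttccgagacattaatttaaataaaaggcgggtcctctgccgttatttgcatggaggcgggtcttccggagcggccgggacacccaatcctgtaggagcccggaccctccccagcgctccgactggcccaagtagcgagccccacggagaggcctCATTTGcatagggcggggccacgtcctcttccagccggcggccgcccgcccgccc

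On either strand, CANNTG was present in 61.8% of the 35116 upstream windows of the same length in the RefSeq table, and the form CACCTG in 17.5%. At least 1 E-box was found in a window of 4 of the 8 matched members, DCLRE1C, POLM, XRCC6 and LIG4. LIG4 has 5 annotated starts with 1 to 4 E-boxes each. The form CAGCTG, present in 14.0% of all windows, was found at LIG4 alone. The GC box GGGCGG was found in 42.6% of all windows and 4 times upstream of POLM, and CCAAT in 32% of all windows and 2 times upstream of POLM and of each DCLRE1C start. The E2F-type motif TTCCCGC, found in 5.52% of all windows, occurred 2 times before the inner DCLRE1C start, whereas TTGGCGC (2.56% of all windows) was found in no member's window and GCATGCG (3.39%) in a single LIG4 window. These matches describe the letters of the windows and no binding.

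Depth ranged from 37878751 to 76906266 counts assigned to genes in the AID-DIvA libraries and from 46285533 to 70692114 in the U2OS libraries. WT untreated replicate 1 of U2OS stood apart from replicates 2 and 3 of its group. An example is PRKDC, at 364 CPM (counts scaled to library size) against 655 and 650 CPM. Most NHEJ results and list counts that rest on this library are given with and without it. Values of other single genes in WT U2OS cells include it, save the ID3 response to treatment, which is given both ways. ID3 transcripts were still counted in the ID3-KO libraries, at 29.3 to 67.3 CPM against 47.9 to 128.8 CPM in WT, and the gene was lower in ID3-KO in all 4 genotype comparisons, by between 0.56 (SE 0.07) and 1.21 (SE 0.09) on the log2 scale. Of the mesenchymal and osteoblast markers, VIM lay at 276 to 563 TPM (the deposited length-normalised level) and COL1A1 at 244 to 821 TPM, while SP7 and TWIST1 did not exceed 0.0926 TPM and 0.0393 TPM. Of 9 markers of blood, epithelial, endothelial and liver cells, 8 were found, and all but the epithelial gene EPCAM (5.41 to 14.5 TPM) stayed below 1 TPM, with ALB and CD3E at a median of 0. Their summed level was 14.4 to 16.1 TPM in treated and 7.92 to 9.04 TPM in untreated U2OS libraries. In AID-DIvA libraries it was 8.19 to 8.90 TPM treated and 6.65 to 7.72 TPM untreated in WT, and 10.7 to 11.7 TPM treated and 8.09 to 9.34 TPM untreated in ID3-KO. Its part in the results was not tested.

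The NHEJ genes spanned over 3 orders of magnitude in abundance if NHEJ1, whose value has a limit given below, is included. The medians of the other members lay between 8.59 TPM (DCLRE1C) and 789 TPM (XRCC6). On the length-normalised TPM scale deposited with the counts, XRCC6 was the most abundant member, with a median of 789 TPM over the 24 libraries (range 653 to 893). XRCC5 followed at 381 TPM (277 to 441), PRKDC at 122 TPM (71.9 to 147) and TP53BP1 at 58.0 TPM (46.7 to 75.8), and the ranges of these 4 genes did not overlap, save at a single PRKDC library that fell below the highest TP53BP1 library. POLM (median 23.95 TPM), XRCC4 (16.8 TPM), POLL (13.8 TPM), LIG4 (13.7 TPM) and DCLRE1C (8.59 TPM) formed a middle group in which neighbouring ranges overlapped. NHEJ1 was lowest, at 0.521 TPM (0.227 to 0.946).

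The low NHEJ1 value comes with a limit. Only 11 to 45 fragments per library were assigned to it. Its span on chromosome 2 (219940039 to 220025587 in the deposited GRCh37 annotation, minus strand) lies almost wholly inside the gene model of SLC23A3 on the same strand, which held 12522 fragments in all libraries together against 699 for NHEJ1. Whether fragments that match both models were counted is not given in the sources used here. POLL lies within DPCD on the opposite strand, and DCLRE1C overlaps the end of SUV39H2 on the opposite strand over 12.2% of its span. The changes below were therefore also computed from reverse-strand counts, the strand of the library kit, and no call of POLL or DCLRE1C changed. No call of NHEJ1 changed either, but these counts cannot separate it from SLC23A3, which lies on the same strand.

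**Figure D1:**
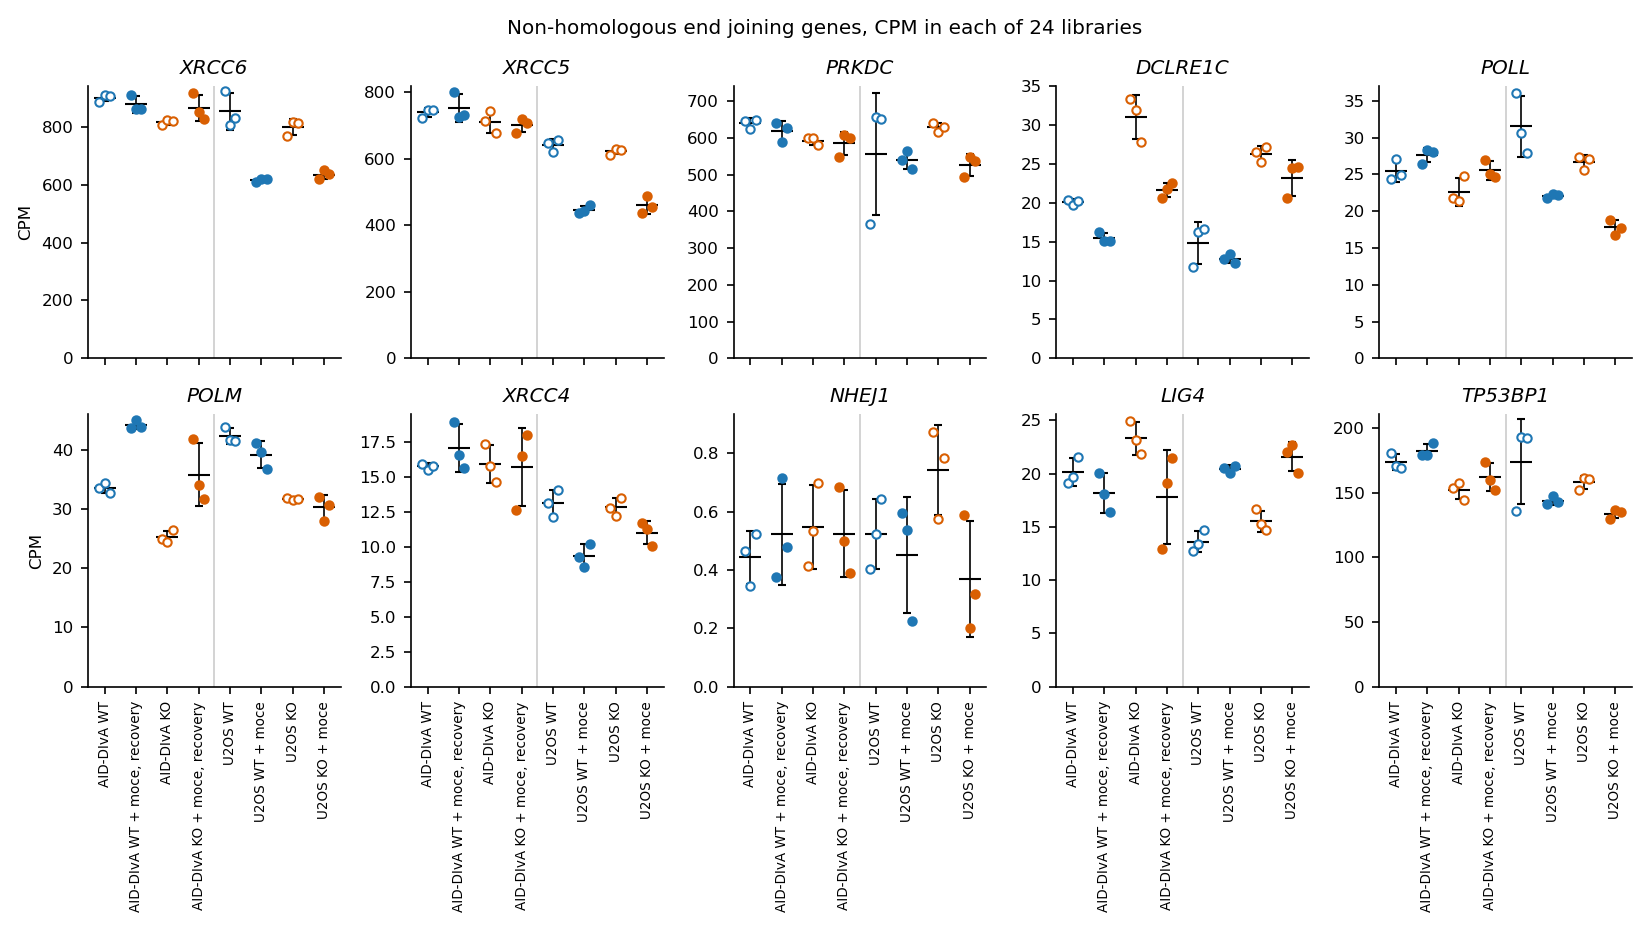
CPM of each NHEJ gene (y axis, starting at 0, with its own range in each panel) in the 8 groups (x axis), with WT libraries in blue, ID3-KO libraries in orange, treated libraries as filled points, and the mean and SD of 3 libraries in black. XRCC6 and XRCC5 fall in the treated U2OS groups to the right of the grey line, LIG4 rises there, and DCLRE1C is higher in ID3-KO than in WT on both sides of the line.

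The first question was how mocetinostat changed the NHEJ genes, and the values differed between the AID-DIvA and the U2OS libraries. After recovery, in AID-DIvA cells, the same 2 of 10 genes passed the test in both genotypes: DCLRE1C fell and POLM rose. Without treated WT replicate 1 the WT count was 5, LIG4, POLL and TP53BP1 being added. The share of all genes called in that fit is not given here, so the larger count has no background beside it. With all libraries the background was high, as 46.9% of all genes tested changed in WT (23.9% higher, 23.0% lower) and 40.1% in ID3-KO (20.2% higher, 19.9% lower) at an adjusted p below 0.05. The median log2 change of the 10 genes was 0.06 in WT and -0.01 in ID3-KO, against 0.00 and -0.02 over all genes. The smallest adjusted p among the other 8 genes was 0.094 in WT (POLL) and 0.093 in ID3-KO (LIG4).

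Before recovery, in U2OS cells, 5 of 10 NHEJ genes passed the test in WT and 9 of 10 in ID3-KO, and all but LIG4 of these were lower. In WT, 4 genes fell (XRCC6, XRCC5, POLL and XRCC4) and LIG4 rose, which is 5 of 10 against a background of 48.9% of genes (26.0% higher, 22.9% lower). Without the untreated WT replicate 1, PRKDC, DCLRE1C and TP53BP1 fell as well, making 8 of 10 against 66.4% of genes. In ID3-KO, 8 genes fell and LIG4 rose, 9 of 10 against 69.9% of genes (35.8% higher, 34.0% lower), with POLM the exception. The median log2 change of the 10 genes was -0.24 in both genotypes, against 0.01 (WT) and 0.00 (ID3-KO) over all genes, and -0.39 in WT without that library, against 0.00. No change in the 4 treatment comparisons was both called and past 1 in either direction on the log2 scale, whereas 7.38% (WT) and 7.46% (ID3-KO) of all genes in AID-DIvA cells and 18.6% and 20.3% in U2OS cells were. In bulk RNA, fewer cells with a transcript and less transcript per cell cannot be told apart.

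**Figure D2:**
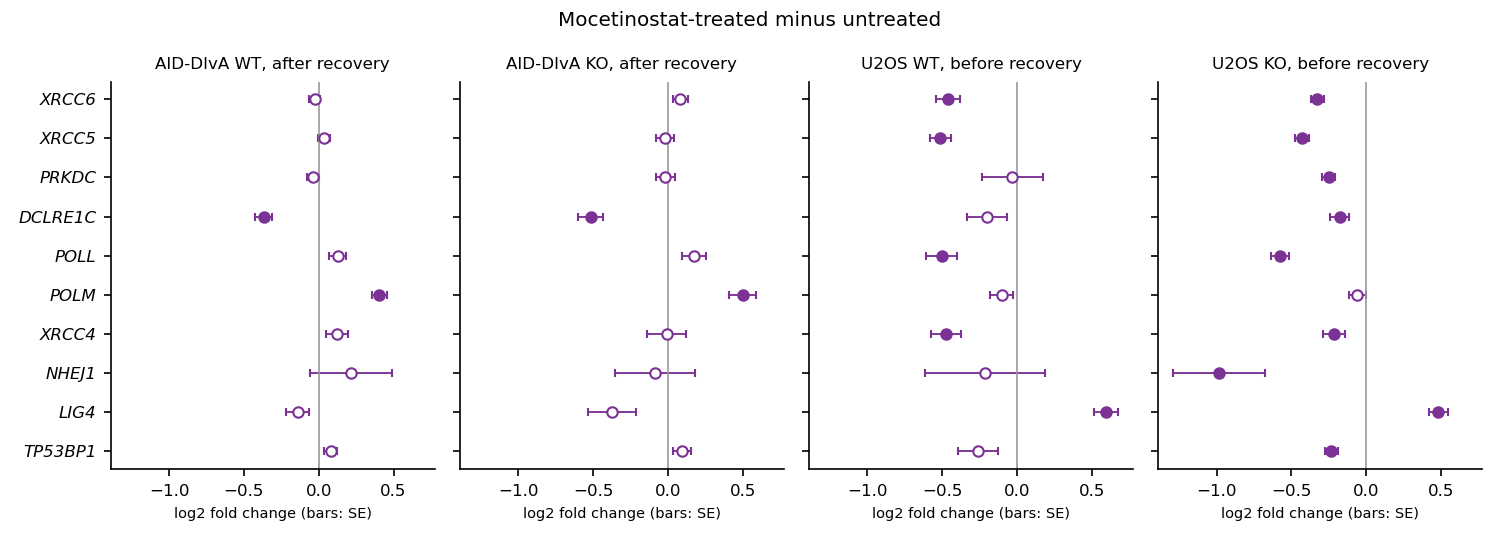
Log2 fold change, mocetinostat-treated minus untreated (x axis, bars show the SE), of the 10 NHEJ genes (y axis) in the 4 treatment comparisons, filled where the adjusted p was below 0.05. After recovery only DCLRE1C and POLM are filled, while before recovery XRCC6, XRCC5, POLL and XRCC4 lie left of 0 and LIG4 right of it in both genotypes.

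Both Ku subunits fell before recovery. XRCC6 was measured at 926, 806 and 831 CPM in untreated and at 609, 622 and 619 CPM in treated WT U2OS cells. The groups did not overlap, and the log2 change was -0.46 (SE 0.08, adjusted p = 0.0021), or -0.40 (SE 0.03) without untreated replicate 1. In ID3-KO cells XRCC6 went from 769, 818 and 813 CPM to 619, 650 and 637 CPM, again without overlap, a change of -0.33 (SE 0.04, adjusted p = 4.9e-07). After recovery the same gene lay at 862 to 912 CPM in treated and 888 to 909 CPM in untreated WT AID-DIvA cells, and the log2 difference was -0.03 (SE 0.04). In ID3-KO AID-DIvA cells it was 0.08 (SE 0.05, adjusted p = 0.22), at 807, 823 and 820 CPM untreated and 917, 851 and 828 CPM treated, and the groups did not overlap although the test was not passed.

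XRCC5, the partner of XRCC6, behaved alike. Untreated WT U2OS libraries held 647, 620 and 655 CPM and treated ones 436, 443 and 460 CPM, a log2 change of -0.51 (SE 0.07, adjusted p = 0.00056), or -0.51 (SE 0.03) without untreated replicate 1. In ID3-KO the values were 612, 629 and 627 CPM untreated and 437, 488 and 455 CPM treated, a change of -0.43 (SE 0.05, adjusted p = 1.4e-08). Untreated and treated libraries did not overlap in either genotype. After recovery the log2 differences were 0.03 (SE 0.04) in WT and -0.02 (SE 0.06) in ID3-KO, and the libraries of treated and untreated cells overlapped.

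PRKDC, the kinase subunit that Ku recruits, shows what a single library does to the test. In ID3-KO U2OS cells it went from 640, 616 and 629 CPM to 492, 547 and 537 CPM, a log2 change of -0.25 (SE 0.05, adjusted p = 3.5e-05). In WT the untreated values were 364, 655 and 650 CPM and the treated values 540, 563 and 516 CPM, so the groups overlapped through untreated replicate 1 alone. The log2 change was -0.03 (SE 0.20, adjusted p = 0.91) with that library and -0.27 (SE 0.03, adjusted p = 2e-09) without it. After recovery, PRKDC differed by -0.04 (SE 0.04) in WT and -0.02 (SE 0.06) in ID3-KO and did not pass the test.

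Among the end-processing genes, Artemis and the 2 polymerases each had a pattern of their own. DCLRE1C was at 20.4, 19.7 and 20.2 CPM in untreated WT AID-DIvA cells and at 16.2, 15.1 and 15.1 CPM after treatment and recovery, a log2 change of -0.37 (SE 0.06, adjusted p = 0.00018). In ID3-KO it went from 33.4, 31.9 and 27.9 CPM to 20.7, 21.7 and 22.6 CPM, a change of -0.52 (SE 0.09, adjusted p = 0.0011). Treated and untreated libraries did not overlap in either genotype.

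In U2OS cells before recovery DCLRE1C passed the test in ID3-KO alone. ID3-KO libraries held 26.5, 25.3 and 27.2 CPM untreated and 20.6, 24.5 and 24.6 CPM treated, a log2 change of -0.18 (SE 0.06, adjusted p = 0.018) that lost its call without treated replicate 1 (-0.10, adjusted p = 0.13) or untreated replicate 3 (-0.15, adjusted p = 0.073). WT values were 11.7, 16.2 and 16.6 CPM untreated and 12.7, 13.4 and 12.3 CPM treated. The groups overlapped through untreated replicate 1, with a log2 change of -0.20 (SE 0.14, adjusted p = 0.26) that became -0.35 (SE 0.07, adjusted p = 7.9e-06) without it.

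POLM, the polymerase that can join ends with little or no pairing between them, rose after recovery. In WT AID-DIvA cells it went from 33.6, 34.3 and 32.6 CPM to 43.7, 44.9 and 43.8 CPM, a log2 change of 0.41 (SE 0.05, adjusted p = 1.5e-05). In ID3-KO it went from 24.99, 24.3 and 26.4 CPM to 41.7, 34.0 and 31.6 CPM, a change of 0.50 (SE 0.09, adjusted p = 0.0022). The groups were apart in both genotypes, although ID3-KO treated replicate 1 lay well above the other two. Before recovery, the log2 difference of POLM was -0.10 (SE 0.08, adjusted p = 0.31) in WT and -0.06 (SE 0.06, adjusted p = 0.36) in ID3-KO.

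POLL, the gap-filling polymerase of the same family, was called lower before recovery in both genotypes, where POLM was not called. In WT U2OS cells it fell from 36.1, 30.6 and 27.9 CPM to 21.7, 22.3 and 22.2 CPM, a log2 change of -0.50 (SE 0.11, adjusted p = 0.0053), or -0.40 (SE 0.05) without untreated replicate 1. The change in ID3-KO, from 27.3, 25.6 and 27.1 CPM to 18.8, 16.8 and 17.8 CPM, was -0.58 (SE 0.06, adjusted p = 7.8e-09). Neither pair of groups overlapped. DPCD, in which POLL lies on the opposite strand, was also lower in both genotypes, by 0.88 (SE 0.12) and 0.76 (SE 0.07) on the log2 scale, and the POLL change from reverse-strand counts passed the test as well. After recovery POLL differed by 0.13 (SE 0.06) in WT and by 0.18 (SE 0.08) in ID3-KO without passing the test. It passed in WT without treated replicate 1 (0.16, adjusted p = 0.011) and in ID3-KO without untreated replicate 3 (0.25, adjusted p = 0.025).

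Of the ligation genes, LIG4 was the single member that rose before recovery. In WT U2OS cells the ligase transcript went from 12.8, 13.4 and 14.7 CPM to 20.5, 20.02 and 20.8 CPM, a log2 change of 0.60 (SE 0.08, adjusted p = 0.00055), or 0.55 (SE 0.06) without untreated replicate 1. In ID3-KO it went from 16.6, 15.2 and 14.7 CPM to 22.0, 22.7 and 20.04 CPM, a change of 0.48 (SE 0.06, adjusted p = 6.1e-07). All treated libraries lay above all untreated ones.

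After recovery LIG4 was not called in either genotype. WT AID-DIvA libraries held 19.1 to 21.6 CPM untreated and 16.4 to 20.1 CPM treated (log2 difference -0.14, SE 0.08). ID3-KO libraries held 24.96, 23.1 and 21.9 CPM untreated and 12.9, 19.1 and 21.5 CPM treated (-0.37, SE 0.16, adjusted p = 0.093). The call depended on the setting. LIG4 passed the test in WT without treated replicate 1 (-0.22, adjusted p = 0.0028). In ID3-KO it passed without treated replicate 3 (-0.51, adjusted p = 0.022) or without the filter on low counts (-0.37, adjusted p = 0.00073). The ID3-KO call changed in 3 of 12 alternatives. Over these 12 the log2 difference ranged from -0.51 to -0.18, with adjusted p values up to 0.23.

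XRCC4, the scaffold that binds and stabilises the ligase, moved opposite to LIG4 before recovery. It fell from 13.1, 12.1 and 14.1 CPM to 9.29, 8.55 and 10.2 CPM in WT U2OS cells, a log2 change of -0.47 (SE 0.10, adjusted p = 0.0056), or -0.46 (SE 0.08) without untreated replicate 1. In ID3-KO it went from 12.8, 12.2 and 13.5 CPM to 11.7, 11.2 and 10.1 CPM, a change of -0.22 (SE 0.07, adjusted p = 0.011) that lost its call without treated replicate 3 (adjusted p = 0.096) or untreated replicate 3 (adjusted p = 0.064). The groups did not overlap in either genotype. After recovery the differences were 0.12 (SE 0.07) in WT and -0.01 (SE 0.13) in ID3-KO.

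NHEJ1, which encodes the XLF protein that bridges XRCC4 complexes, was called once, in ID3-KO U2OS cells, where it went from 0.873, 0.573 and 0.784 CPM to 0.588, 0.202 and 0.318 CPM. The log2 change was -0.98 (SE 0.31, adjusted p = 0.0072), the largest of any member and the least precise. The groups overlapped, since the highest treated library lay above the lowest untreated one. SLC23A3, whose gene model on the same strand holds almost all of NHEJ1, was also lower in ID3-KO U2OS cells, by 0.34 (SE 0.07, adjusted p = 0.0002). Its part in the NHEJ1 change was not tested. In the other 3 treatment comparisons the SE of NHEJ1 was between 0.27 and 0.40. With so few fragments assigned to it, changes of the size seen in the other members were not detectable.

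TP53BP1, whose protein shields ends from resection, fell in ID3-KO U2OS cells from 152, 161 and 161 CPM to 130, 137 and 135 CPM, a log2 change of -0.23 (SE 0.04, adjusted p = 5e-05) without overlap of the groups. In WT U2OS cells untreated values were 136, 193 and 193 CPM and treated values 141.5, 148 and 143 CPM. The groups again overlapped through untreated replicate 1, and the log2 change was -0.26 (SE 0.13, adjusted p = 0.14) with it and -0.41 (SE 0.03, adjusted p = 2.7e-15) without it. After recovery the differences were 0.08 (SE 0.04), called only without treated replicate 1 (0.09, adjusted p = 0.023), in WT and 0.09 (SE 0.06) in ID3-KO.

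Genes of a proliferation list, which also holds the cell cycle inhibitor CDKN1A, were called in the same comparisons. Of 12 listed genes, 8 fell and 4 rose in WT AID-DIvA cells (PCNA, MCM2, MCM5 and CDKN1A) and 8 fell and 3 rose in ID3-KO (MCM2, MCM5 and CDKN1A), against backgrounds of 46.9% and 40.1% of genes. In U2OS cells 8 fell and CDKN1A alone rose in WT, and 10 fell and CDK1 (0.11) and CDKN1A rose in ID3-KO, against 48.9% and 69.9%. Without the untreated WT replicate 1 of U2OS, 10 fell and 1 rose in WT, against 66.4%. CDKN1A, at 161 to 631 TPM over the 24 libraries, is part of the sums that follow. Their summed level went from 3541 to 3793 TPM down to 2794 to 2962 TPM in WT AID-DIvA cells, and from 3354 to 3488 TPM down to 2321 to 2541 TPM in ID3-KO. In U2OS cells it went from 2973 to 3240 TPM down to 2575 to 2651 TPM in WT, and from 3259 to 3357 TPM down to 2584 to 2675 TPM in ID3-KO. The DNA replication gene MCM5 rose after recovery, with a log2 change of 0.21 in WT and 0.30 in ID3-KO, and fell before recovery, with changes of -1.61 and -1.67. The part of these changes in those of the NHEJ genes was not tested.

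Markers of the cell type changed with treatment as well. Of the mesenchymal markers VIM and CDH2, both fell after recovery in either genotype, by 0.22 to 0.47, and neither was called before it. Without the untreated WT replicate 1 of U2OS, 1 of them was called higher in WT before recovery. Of the osteoblast markers, RUNX2, the master regulator of the osteoblast lineage, fell before recovery by 1.53 (SE 0.12) in WT and 0.97 (SE 0.06) in ID3-KO, and COL1A1 by 0.63 (SE 0.08) and 0.65 (SE 0.05). ALPL fell before recovery, with changes of -0.80 and -0.54, and rose after it, with changes of 0.95 and 0.83 in WT and ID3-KO. Other osteoblast markers rose before recovery, SPP1 by 1.02 (SE 0.07) in WT and 1.72 (SE 0.06) in ID3-KO, and IBSP by 4.45 and 3.84. COL1A2 rose by 1.01 (SE 0.42) in ID3-KO. IBSP and COL1A2 were low, at or below 1.36 TPM and 0.441 TPM. After recovery SPP1 rose by 0.16 in WT and 0.52 in ID3-KO, while RUNX2 (0.43) and COL1A1 (-0.43) were called in ID3-KO alone. The summed osteoblast level went from 841 to 889 TPM down to 635 to 676 TPM in WT U2OS cells, and from 587 to 648 TPM down to 447.5 to 485 TPM in ID3-KO. In AID-DIvA cells it went from 508.5 to 517 TPM down to 312 to 455 TPM in WT and from 456 to 585 TPM down to 361 to 395 TPM in ID3-KO. Their part in the results was not tested. ID3 itself rose with treatment in AID-DIvA cells, by 1.24 (SE 0.08) in WT and by 0.90 (SE 0.09) in ID3-KO, and in ID3-KO U2OS cells by 0.22 (SE 0.08, adjusted p = 0.021), and differed by 0.40 (SE 0.17, adjusted p = 0.088) in WT U2OS cells. Treated and untreated ID3 values overlapped in both U2OS genotypes. In WT the overlap came from untreated replicate 1 alone, at 80.7 CPM against 54.2 and 52.1 CPM in the others and 77.6 to 89.3 CPM treated. Without that library ID3 was called higher in treated WT U2OS cells, by 0.63.

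The difference between the responses was tested directly, as the treatment change in U2OS cells minus that in AID-DIvA cells, both genotypes together. It passed for 8 of 10 genes, against 57.5% of all genes tested (29.6% higher, 27.9% lower), and it rests on both the cell line and the stage. XRCC6 (-0.43, SE 0.06), XRCC5 (-0.48, SE 0.06), POLL (-0.70, SE 0.08), POLM (-0.54, SE 0.08), XRCC4 (-0.40, SE 0.10) and TP53BP1 (-0.34, SE 0.09) had the lower response before recovery. LIG4 (0.80, SE 0.11) and DCLRE1C (0.25, SE 0.10) had the higher one. The median of the 10 differences was -0.41, against 0.03 over all genes. None was past 1 in either direction, as 17.7% of all genes were. PRKDC (-0.12, SE 0.12) and NHEJ1 (-0.68, SE 0.35) did not pass, and without the untreated WT replicate 1 of U2OS PRKDC passed as well (-0.25, SE 0.05, adjusted p = 8.3e-05), which makes 9 of 10 against 60.1% of all genes, as did NHEJ1 without treated ID3-KO replicate 1 of U2OS (-0.92, adjusted p = 0.027). DCLRE1C was near the threshold, with an adjusted p of 0.029 that rose to between 0.05 and 0.066 without any of 8 libraries. Its difference was 0.16 (SE 0.07, adjusted p = 0.048) without the untreated WT replicate 1 of U2OS.

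The second question was whether loss of ID3 changed the NHEJ genes. In untreated AID-DIvA cells 7 of 10 passed the test, against 36.7% of all genes (18.6% higher, 18.1% lower). DCLRE1C and LIG4 were higher in ID3-KO and XRCC6, PRKDC, POLL, POLM and TP53BP1 lower. In untreated U2OS cells 2 passed, against 15.2% of genes (6.56% higher, 8.63% lower). In treated AID-DIvA cells 3 passed, against 23.7% (12.6% higher, 11.1% lower), and in treated U2OS cells 4, against 37.9% (19.0% higher, 19.0% lower). DCLRE1C and POLM were among them each time. The median log2 difference of the 10 genes was -0.11, -0.04, -0.11 and 0.00 in that order, against 0.00, -0.01, -0.02 and 0.00 over all genes. No called difference was past 1 in either direction, against 4.58%, 4.26%, 4.76% and 3.49% of all genes.

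Cell type markers differed between the genotypes too. VIM was higher in ID3-KO in all 4 comparisons, by 0.56 to 0.76 on the log2 scale, and CDH2 by 0.35 to 0.56. Lower in all 4 were ALPL (log2 differences from -2.32 to -1.46), COL1A2 (-2.82 to -1.56) and RUNX2 (-0.84 to -0.24). COL1A1 was lower in untreated and treated U2OS cells (-0.49 and -0.51) and not called in AID-DIvA cells (0.11 and 0.05). SPP1 was not called in treated U2OS cells, and BGLAP in no comparison. The summed osteoblast level overlapped in AID-DIvA cells, at 508.5 to 517 TPM in WT and 456 to 585 TPM in ID3-KO untreated. In U2OS cells it was lower in ID3-KO, untreated and treated. The summed mesenchymal level was 433 to 464 TPM in WT and 653 to 693.5 TPM in ID3-KO untreated AID-DIvA cells, and 343 to 356 TPM against 443 to 525 TPM in treated ones. In U2OS cells it was 398 to 413 TPM in WT and 595 to 613.5 TPM in ID3-KO untreated, and 414.5 to 428 TPM against 626.5 to 683.5 TPM treated. The part of these differences in those of the NHEJ genes was not tested.

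**Figure D3:**
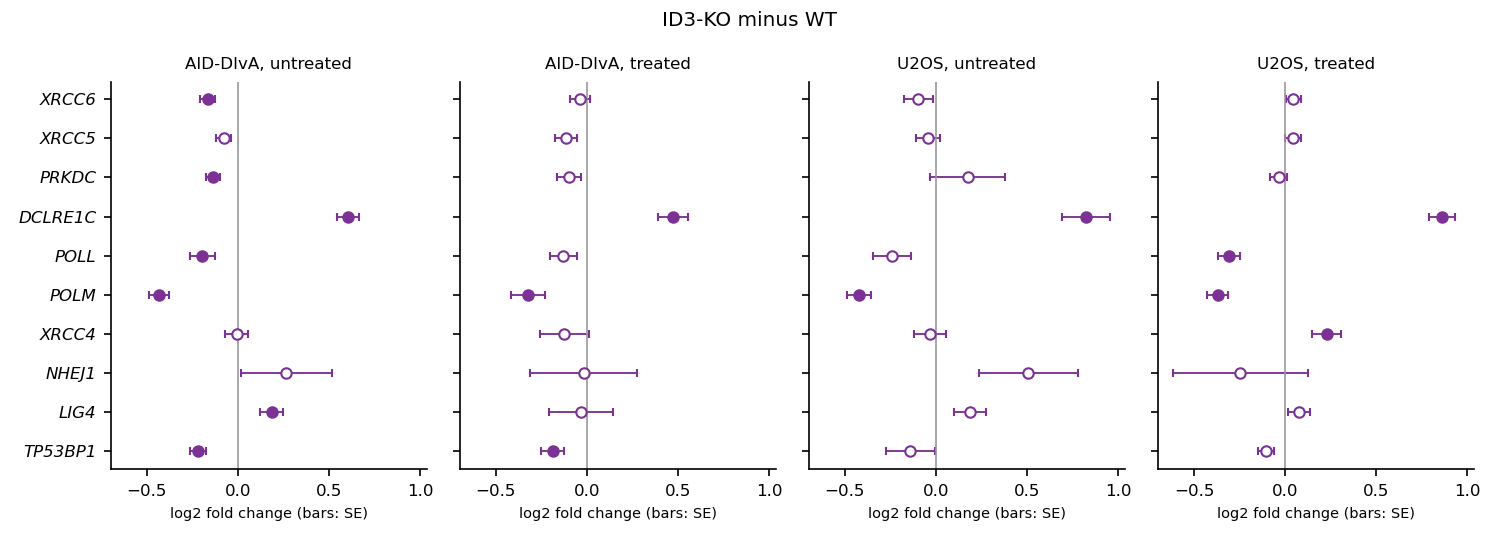
Log2 difference, ID3-KO minus WT (x axis, bars show the SE), of the 10 NHEJ genes (y axis) in the 4 genotype comparisons, filled where the adjusted p was below 0.05. DCLRE1C lies between 0.47 and 0.86 and POLM between -0.43 and -0.32, filled in every panel.

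DCLRE1C was higher in ID3-KO in every setting. In untreated AID-DIvA cells the values given above, 33.4, 31.9 and 27.9 CPM in ID3-KO against 20.4, 19.7 and 20.2 CPM in WT, gave a log2 difference of 0.61 (SE 0.06, adjusted p = 1.2e-06). After treatment and recovery the difference was 0.47 (SE 0.08, adjusted p = 0.0018). In U2OS cells it was 0.82 (SE 0.13, adjusted p = 0.0064) untreated, or 0.68 (SE 0.06) without WT replicate 1, and 0.86 (SE 0.07, adjusted p = 3.4e-11) treated. No ID3-KO library lay within the range of the matched WT libraries. SUV39H2, a histone methyltransferase gene whose end overlaps DCLRE1C on the opposite strand, was likewise higher in ID3-KO, by 0.68 (SE 0.05) and 0.75 (SE 0.08) in untreated AID-DIvA and U2OS cells and by 0.73 (SE 0.06) in treated U2OS cells, and was 0.48 (SE 0.18, adjusted p = 0.08) in treated AID-DIvA cells. The DCLRE1C calls from reverse-strand counts were the same.

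POLM was lower in ID3-KO in the same 4 settings. The log2 differences were -0.43 (SE 0.05, adjusted p = 1.1e-05) in untreated and -0.32 (SE 0.09, adjusted p = 0.026) in treated AID-DIvA cells, and -0.42 (SE 0.07, adjusted p = 0.0056, or -0.39, SE 0.05, without WT replicate 1) in untreated and -0.37 (SE 0.06, adjusted p = 6.4e-06) in treated U2OS cells. Untreated U2OS cells illustrate the spread, with 43.8, 41.7 and 41.4 CPM in WT and 31.8, 31.6 and 31.6 CPM in ID3-KO. No pair of groups overlapped. In treated AID-DIvA cells the call was fragile, and it was lost without any of 5 of the 6 libraries, with adjusted p values from 0.053 to 0.13, the exception being ID3-KO replicate 1. In untreated U2OS cells it was lost without ID3-KO replicate 3 (adjusted p = 0.051).

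The other called genotype differences were at most 0.31 in size. TP53BP1 was lower in ID3-KO by 0.22 (SE 0.05, adjusted p = 0.0013) in untreated AID-DIvA cells, at 154, 157 and 144 CPM against 181, 171 and 169 CPM in WT, and by 0.19 (SE 0.06, adjusted p = 0.048) in treated ones, a call that was lost without any of 5 libraries, with no filter on low counts (adjusted p = 0.098), by DESeq2 (adjusted p = 0.089) and with its size factors in edgeR (adjusted p = 0.066). In untreated U2OS cells it differed by -0.14 (SE 0.14, adjusted p = 0.54), or by -0.29 (SE 0.04, adjusted p = 8.2e-09) without WT replicate 1. In the treated U2OS cells the difference was -0.10 (SE 0.04, adjusted p = 0.06), and it passed from reverse-strand counts (-0.11, adjusted p = 0.041) and without ID3-KO replicate 2 (-0.12, adjusted p = 0.012).

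POLL was lower in ID3-KO in treated U2OS cells, at 18.8, 16.8 and 17.8 CPM against 21.7, 22.3 and 22.2 CPM, by 0.31 (SE 0.06, adjusted p = 0.00011), and in untreated AID-DIvA cells by 0.19 (SE 0.07, adjusted p = 0.033), where the groups overlapped. XRCC6 (-0.17, SE 0.04), PRKDC (-0.13, SE 0.04) and LIG4 (0.19, SE 0.06) passed in untreated AID-DIvA cells and in no other genotype comparison. The calls there of POLL, PRKDC and LIG4 were all lost without ID3-KO replicate 1 or WT replicate 1, leaving 4 of 10. The share of all genes called in those fits is not given here. POLL also lost its call without any of 3 further libraries and PRKDC and LIG4 each without 1 further library. XRCC4 was higher in ID3-KO in treated U2OS cells by 0.23 (SE 0.08, adjusted p = 0.022), although the groups overlapped and the call was lost by DESeq2 (adjusted p = 0.051) and without any of 3 libraries. Without WT replicate 1, the untreated U2OS comparison called 4 of 10 genes, TP53BP1 and POLL being added, against 41.1% of all genes. XRCC5 and NHEJ1 passed in no genotype comparison. In the order used above, the XRCC5 differences were -0.08 (SE 0.04), -0.04 (SE 0.07), -0.12 (SE 0.06) and 0.05 (SE 0.04). Those of NHEJ1 were 0.27 (SE 0.25), 0.51 (SE 0.27), -0.02 (SE 0.29) and -0.25 (SE 0.37).

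Whether genotype changed the response to mocetinostat was tested as an interaction. By edgeR's quasi-likelihood test 0 of 10 genes passed in AID-DIvA cells, where 1.21% of all genes did, and 0 of 10 in U2OS cells, where 2.15% did. No member had an unadjusted p below 0.05 in either, and DESeq2 called 0 in both. The interaction terms (ID3-KO change minus WT change, log2) ranged from -0.29 to 0.12 in AID-DIvA and from -0.77 to 0.26 in U2OS cells, NHEJ1 being the lowest in each. The smallest SE in U2OS cells was that of XRCC5, with a term of 0.09 (SE 0.08). Called terms past 1 in either direction were 0.31% of all genes in AID-DIvA and 0.68% in U2OS cells. Without the untreated WT replicate 1 of U2OS, TP53BP1 passed (0.18, SE 0.06, adjusted p = 0.04), against 9.03% of all genes.

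The other genes of the pathway were followed in 3 lists. Of 11 accessory NHEJ genes, which trim or modify ends or support the core factors, 10 were tested, DNTT staying at or below 0.142 TPM. Before recovery 7 fell and 1 rose in each genotype, against the 48.9% (WT) and 69.9% (ID3-KO) of all genes called, with a median log2 change of -0.37 in WT and -0.39 in ID3-KO. Without the untreated WT replicate 1, 8 fell and 1 rose in WT, against 66.4%, with a median of -0.30. In WT U2OS cells the largest changes were those of PAXX (-0.76), a further Ku-binding factor, APLF (0.69), a scaffold that binds Ku, and SETMAR (-0.66). After recovery 5 fell in WT and 4 in ID3-KO, and none rose, against 46.9% and 40.1% of all genes. APLF fell there, by 0.46 in WT and 0.54 in ID3-KO, and its response in U2OS minus that in AID-DIvA cells was 1.19 (SE 0.12, adjusted p = 6.7e-09).

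Of 11 tested genes of the 53BP1 pathway (SHLD3 was not matched by name), 3 fell and 1 rose in WT and 6 fell and 4 rose in ID3-KO U2OS cells, beside the same backgrounds of 48.9% and 69.9%. Without the untreated WT replicate 1, 6 fell and 4 rose in WT, against 66.4%, so that the WT count depends on this library. SHLD1, a subunit of the shieldin complex that acts downstream of 53BP1, fell by 1.12 (SE 0.16) in WT and by 1.01 (SE 0.16) in ID3-KO. NUDT16L1, whose protein binds 53BP1, fell by 1.04 (SE 0.20) and 1.16 (SE 0.07). The median log2 change of the list was -0.04 in WT, or -0.22 without that library, and -0.21 in ID3-KO. After recovery, 2 rose and 2 fell in WT, against 46.9% of all genes. The 2 that fell were SHLD1, by 0.69 (SE 0.12), and the dynein light chain gene DYNLL1, by 0.31 (SE 0.04). In ID3-KO DYNLL1 alone changed, against 40.1% of all genes, and it fell by 0.34 (SE 0.06).

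The 11 genes of alternative end joining and end resection included 6 that fell and none that rose in WT U2OS cells, and 7 that fell and 2 that rose in ID3-KO, beside the same backgrounds. Without the untreated WT replicate 1, 7 fell and 2 rose in WT, against 66.4% of all genes, with a median of -0.51. BRCA1, which promotes homologous recombination, fell by 0.84 (SE 0.12) and 0.74 (SE 0.05), and LIG3, the ligase of alternative end joining, by 0.70 (SE 0.10) and 0.87 (SE 0.05). The list's median with all libraries was -0.33 in WT and -0.24 in ID3-KO. After recovery POLQ, the polymerase of alternative end joining, fell by 0.38 (SE 0.04) in WT and by 0.56 (SE 0.09) in ID3-KO. It was among 4 that fell and 2 that rose in WT, against 46.9% of all genes. In ID3-KO 2 fell and 1 rose, against 40.1%.

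**Figure D4:**
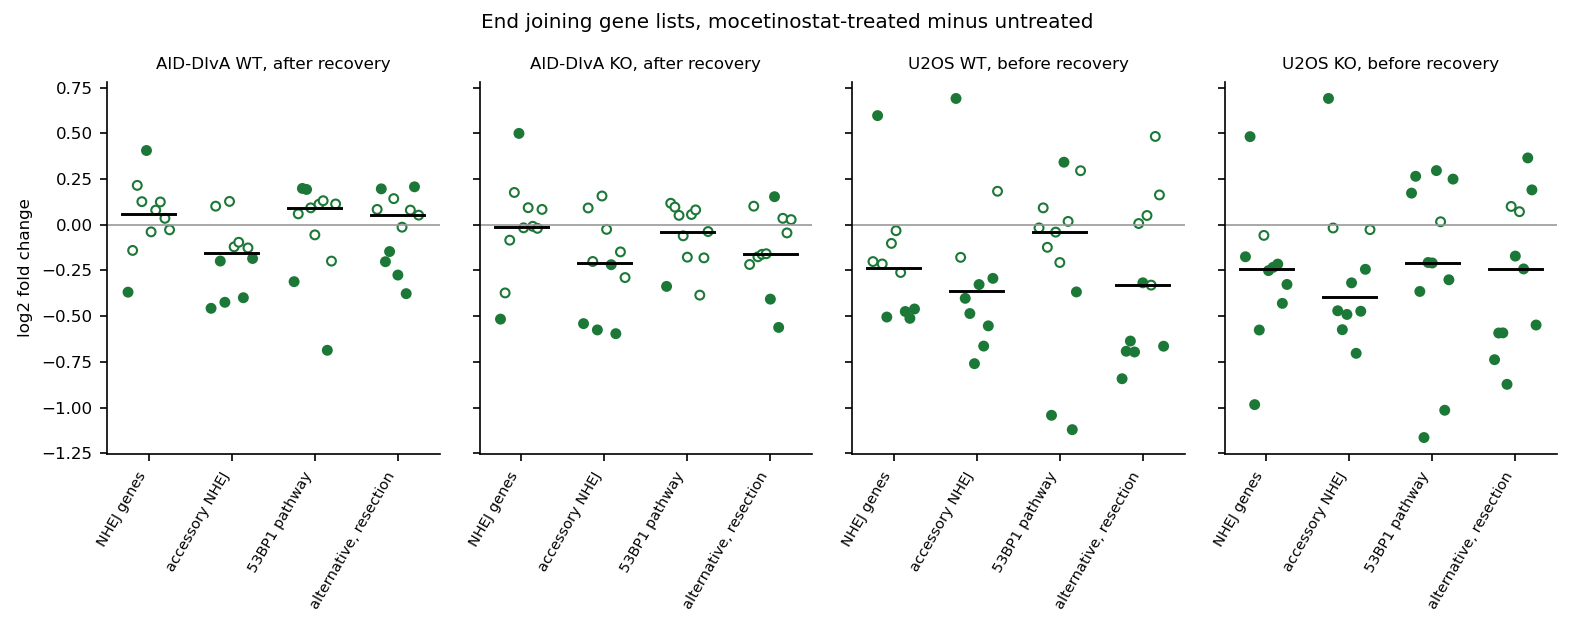
Log2 fold change, treated minus untreated (y axis), of each tested gene in the NHEJ list and the 3 related lists (x axis) in the 4 treatment comparisons, filled where the adjusted p was below 0.05, with the list median as a black line. Before recovery all 4 medians lie below 0 in both genotypes, from -0.04 to -0.39, and after recovery they lie between -0.21 and 0.09.

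Between genotypes, the accessory list had 4, 1, 3 and 4 genes called in untreated AID-DIvA, untreated U2OS, treated AID-DIvA and treated U2OS cells, the 53BP1 list 4, 3, 1 and 6, and the alternative list 5, 4, 2 and 10, against 36.7%, 15.2%, 23.7% and 37.9% of all genes. Without WT replicate 1, the counts in untreated U2OS cells were 4, 7 and 8, against 41.1%. APLF was lower in ID3-KO in all 4 comparisons, by 0.54 to 0.73. LIG3 was higher in ID3-KO in all 4, by 0.46 to 0.63, and so was RNF168, the ubiquitin ligase that prepares chromatin for 53BP1, by 0.26 to 0.34. Among the proliferation genes 3 were higher and 4 lower in untreated AID-DIvA cells, none was called in untreated U2OS cells (6 higher and 1 lower without WT replicate 1), 4 were lower in treated AID-DIvA cells, and 4 were higher and 4 lower in treated U2OS cells. RAG1 and RAG2, whose proteins make the breaks that NHEJ joins in developing lymphocytes, stayed low, with RAG2 at or below 0.161 TPM and RAG1 at 0.286 to 0.998 TPM.

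Several members share a start region with a gene on the opposite strand, within 1000 bases. For XRCC6 it is DESI1, 23 bases away, which did not fall with it: the log2 change of DESI1 before recovery was 0.14 (SE 0.07, adjusted p = 0.14) in WT and 0.03 (SE 0.05, adjusted p = 0.67) in ID3-KO, and it rose after recovery by 0.48 (SE 0.05) and 0.34 (SE 0.06). MCM4, a replication helicase gene 2 bases from PRKDC, fell before recovery by 0.59 (SE 0.08) and 0.50 (SE 0.04) and rose after it by 0.24 (SE 0.04) and 0.20 (SE 0.06). ABHD13, 11 bases from LIG4, rose before recovery in ID3-KO by 0.26 (SE 0.08) and differed by 0.20 (SE 0.12) in WT. MAP1A, 230 bases from TP53BP1, was lower in ID3-KO in all 4 genotype comparisons, by 0.50 to 1.03.

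For each member the protein-coding gene with the most similar pattern was sought among 15655 genes, by Pearson's r of log2 CPM over the 24 libraries. The libraries share 8 groups and 2 cell line labels, so r describes mainly the order of the groups. XRCC6 lay closest to RPL21 (r = 0.98), XRCC5 to RQCD1 (0.988), PRKDC to ASXL2 (0.935), DCLRE1C to SETD2 (0.977), POLL to CORO1B (0.978) and POLM to LRRC8A (0.937). XRCC4 lay closest to GTF2H1 (0.958), LIG4 to EXTL2 (0.966), TP53BP1 to USP4 (0.95) and NHEJ1 to CHRDL2 (0.775). No member had another member as its nearest gene.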

How the data were processed

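Stranded total RNA was sequenced on a NovaSeq in a paired-end setting. Alignment by the authors was to GRCh37 (hg19) using STAR, followed by featureCounts for fragments per gene. Tool versions are not given in the sources used here. The deposited counts are unnormalised whole numbers for either strand and for each strand, and the deposited TPM values were computed by the authors. Of these, TPM was used for levels only and the either-strand counts for all tests.

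Genes were filtered (filterByExpr), scaled by TMM and tested with edgeR 4.0.16 (robust quasi-likelihood fit, Benjamini-Hochberg adjustment over all genes tested, R 4.3.3). A gene was called at an adjusted p below 0.05, and CPM use TMM factors over all 24 libraries. Each treatment and genotype comparison was fitted on its own 6 libraries, interactions on the 12 libraries of a line and the difference between lines on all 24. The SE is the log2 fold change over the root of F. The scripts were tested on simulated data.

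Alternatives were DESeq2 1.42.0, its size factors in edgeR, no filter, a log2 fold limit of 1, reverse-strand counts, a replicate block, each library left out, and all 12 libraries of a line in a single fit.

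Groups were taken from the labels, for AID-DIvA from the titles. The replicates are called biological in the methods and the labels say no more, so p values measure the spread between these samples. No replicate pair agreed within sampling noise (lowest chi-square per gene 2.79). By the rule for named genes, all 10 members, ID3, up to 3 called genes with the largest change per list and comparison, the nearest gene upstream in opposite orientation, and the gene nearest in pattern could be named. CDKN1A, the proliferation genes, the cell type markers and genes overlapping a member were named after their values were seen. The members and lists were chosen with earlier results of these data known.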

Additional observations from a re-analysis of the deposited data

Results flagged for a closer look

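The response to mocetinostat differed between U2OS cells before recovery and AID-DIvA cells after recovery for 8 of the 10 NHEJ genes, by edgeR's test of the difference itself. The same test called 57.5% of all genes tested. On the log2 scale, U2OS minus AID-DIvA, it was -0.43 for XRCC6, -0.48 for XRCC5, -0.70 for POLL, -0.54 for POLM, -0.40 for XRCC4, -0.34 for TP53BP1, 0.25 for DCLRE1C and 0.80 for LIG4. Cell line and stage cannot be told apart in these differences. No group has enough libraries for a test of single outlying samples.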

How the results depend on the processing

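Directions held throughout: no called change of a member had the opposite sign under any alternative. Past a log2 fold limit of 1, 0 members were called in every comparison. With all 12 libraries of the line in a single fit, the treatment comparison in ID3-KO U2OS cells called 5 genes in place of 9. DCLRE1C, PRKDC, TP53BP1 and XRCC4 were lost, and the cause was not tested. The share of all genes called in that fit is not given here, so the smaller count has no background beside it. In that fit 71 of 80 member results kept their side of the threshold. The genotype calls of PRKDC (adjusted p = 0.067) and LIG4 (0.39) in untreated AID-DIvA and of XRCC4 (0.098) in treated U2OS cells were lost as well, and LIG4 (ID3-KO AID-DIvA) and TP53BP1 (WT U2OS) were gained for treatment. Leaving out each library in turn gave 2 to 5 called genes for treatment in WT and 2 to 3 in ID3-KO AID-DIvA cells, 5 to 8 in WT and 7 to 9 in ID3-KO U2OS cells. The 5 came without treated WT replicate 1 of AID-DIvA, which added LIG4, POLL and TP53BP1, and the 8 without untreated WT replicate 1 of U2OS. For genotype it gave 4 to 7 in untreated AID-DIvA (4 without replicate 1 of either genotype), 1 to 4 in untreated U2OS (1 without ID3-KO replicate 3, 4 without WT replicate 1), 1 to 3 in treated AID-DIvA (1 without any library but ID3-KO replicate 1) and 3 to 5 in treated U2OS cells. The interactions gave 0 in AID-DIvA and 0 to 1 in U2OS cells, the 1 being TP53BP1 without untreated WT replicate 1. The difference between the responses gave 7 to 9. For these fits the share of all genes called is given only without untreated WT replicate 1 of U2OS. The other counts have no background beside them. Of 110 member results, 108 stayed on the same side of the threshold with DESeq2, 109 with its size factors in edgeR, 108 with no filter and 109 with reverse-strand counts. Library totals without TMM factors moved group means in CPM by -5.59% to 8.23%. NHEJ1 had the fewest fragments, at most 45 in a library, and whether fragments shared with SLC23A3 were counted is not given.

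Replicate numbers were checked for pairing, and the deviations of same-numbered libraries correlated at -0.123 to 0.115 over 36 pairs, so the numbers do not pair the samples. With the replicate block, 1 gene rather than 3 was called for genotype in treated AID-DIvA cells, POLM and TP53BP1 being lost. The share of all genes called with the block is not given here. The other 108 of 110 member results stayed on the same side of the threshold.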
